A study of Mus musculus with 12 samples.

Results

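The core autophagy machinery was followed as 40 genes chosen by name, from the kinase that starts autophagosome formation to the proteins that fuse the finished autophagosome with the lysosome. All 40 were measured, among 19248 genes in all, through 42 of the 24055 probe sets of the array. The tissue was striatum, the forebrain nucleus most affected in Huntington's disease (HD), taken from 12 mice aged 8 weeks. There were 4 groups of 3 mice. The NT_p62WT mice were non-transgenic with normal gene dosage of p62, and the NT_p62KO mice were non-transgenic with genetic depletion of p62 (p62-_- in the labels). The HD_p62WT and HD_p62KO mice carried an HD transgene with normal p62 (p62+_+) or with its depletion. The HD line, its promoter and the strain were not given in the sources used here, and the labels name no conditional allele for p62. The cross asked what depletion of p62 does to striatal transcripts in the HD model. Because p62 is itself a cargo receptor of autophagy, the genes described here encode the machinery that p62 hands its cargo to.

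In autophagy a double membrane grows around cytoplasm, closes into an autophagosome and fuses with a lysosome, where the content is degraded. Growth starts when the ULK kinase complex activates a lipid kinase complex that marks the membrane with phosphatidylinositol 3-phosphate. Ubiquitin-like proteins of the ATG8 family (LC3 and GABARAP proteins) are then conjugated to the membrane lipid phosphatidylethanolamine. They hold cargo receptors such as p62, which also bind ubiquitinated proteins. Neurons depend on this route for the clearance of misfolded proteins, and mutant huntingtin is one of its substrates. Transcript levels of the machinery do not measure the flux through it.

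Vcp, Atg3, Atg7 and Ulk1 were the 4 members that passed the test in HD mice without p62. They were 10% of the members, where 13.3% of all genes rose. The windows before the starts of these 4 describe sequence only, because the genes were picked by their call in these same data. In that comparison 82.5% of the members had positive differences. Each sequence holds the 250 bases before a transcription start in RefSeq (GRCm38.p6), written 5′ to 3′ on the gene's strand, and capitals mark CACGTG. This motif is the core of the E-box, which TFEB and related factors that drive lysosomal and autophagy genes are known to bind. It reads the same on both strands. The starts of Vcp and Atg3 are the ends of the annotated genes and that of Ulk1 lies 39 bases inside, but the Atg7 start lies 27969 bases inside the annotated Atg7 gene, so its window is that of an internal start.
Vcp, chr4:43000508-43000757, minus strand: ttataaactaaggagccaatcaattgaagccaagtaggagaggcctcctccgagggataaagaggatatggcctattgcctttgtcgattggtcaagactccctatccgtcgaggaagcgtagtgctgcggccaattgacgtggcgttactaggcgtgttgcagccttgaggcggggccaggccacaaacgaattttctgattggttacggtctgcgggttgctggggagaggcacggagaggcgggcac
Atg3, chr16:45158579-45158828, plus strand: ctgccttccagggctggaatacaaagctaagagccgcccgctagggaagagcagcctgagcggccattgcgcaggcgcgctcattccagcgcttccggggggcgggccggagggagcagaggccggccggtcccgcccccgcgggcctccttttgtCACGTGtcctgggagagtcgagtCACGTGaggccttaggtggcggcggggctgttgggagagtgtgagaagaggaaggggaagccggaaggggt
Atg7, chr6:114670846-114671095, plus strand: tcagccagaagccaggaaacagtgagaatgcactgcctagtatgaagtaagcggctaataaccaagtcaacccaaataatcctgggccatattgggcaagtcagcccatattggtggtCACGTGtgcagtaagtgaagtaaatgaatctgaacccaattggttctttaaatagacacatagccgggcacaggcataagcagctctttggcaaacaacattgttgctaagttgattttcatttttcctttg
Ulk1, chr5:110810082-110810331, minus strand: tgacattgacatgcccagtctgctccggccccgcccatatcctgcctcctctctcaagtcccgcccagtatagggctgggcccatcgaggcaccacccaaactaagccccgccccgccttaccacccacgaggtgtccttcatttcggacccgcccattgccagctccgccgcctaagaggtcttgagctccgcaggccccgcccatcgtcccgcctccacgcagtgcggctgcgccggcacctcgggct
The Atg3 window held 2 copies, which began 94 and 71 bases before the start, and the window of the internal Atg7 start held 1, which began 132 bases before it. The Ulk1 and Vcp windows did not hold CACGTG. Of the members, 33 had at least 1 promoter in the RefSeq table and 7 had none there. In 4 of these 33 genes (12.1%) a window held CACGTG, the other two being Atg5 and, at a start 9363 bases inside the gene, Rubcn, against 1854 of 27025 genes in the table (6.86%). Among the members that rose for the HD effect averaged over both p62 genotypes, 2 of 11 with a promoter held it (18.2%). A match describes the sequence and not a bound site. Tfeb itself did not pass in HD mice. Its difference was -0.13 ± 0.10 (SE; limma, adjusted p = 0.45) with p62 and -0.044 ± 0.10 (SE; limma, adjusted p = 0.76) without it.

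Sqstm1, which encodes p62, was low in every mouse labelled as a knockout. Its log2 values lay between 8.44 and 9.13 in the 6 knockouts and between 11.19 and 11.75 in the 6 mice with normal p62. The loss was 6.86-fold in non-transgenic mice (log2 difference -2.78 ± 0.11 SE; limma, adjusted p = 1.05e-07) and 5.58-fold in HD mice (-2.48 ± 0.11 SE; limma, adjusted p = 4.03e-07). Of 15 listed marker genes of striatal projection neurons 12 were measured, with means over all mice from 8.33 (Pdyn) to 12.84 (Penk). Array medians lay between 7.70 and 7.73. The spread of values over all probe sets differed more, from an SD of 1.73 in NT_p62KO replicate 3 to 1.87 in HD_p62KO replicate 2. The number of arrays, 3 per group, limits the precision of each value. Signals of different probe sets are not comparable as levels, so each gene was compared only with itself across mice.

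Across both p62 genotypes, a set of autophagy genes was modestly higher in HD striatum and no member passed the test downward. The HD effect averaged over both genotypes (mean HD effect, 6 HD against 6 non-transgenic mice) passed the test upward for 12 of 40 members and downward for 0 (limma with Benjamini-Hochberg adjustment over all genes, adjusted p below 0.05). Among all 19248 genes 19.9% passed upward and 15.0% downward, 35.0% in all. Among the 12293 genes whose mean signal lay within the members' range, 26.8% passed upward, so the members' share of 30% lay near that background. These genes of like signal span 7.23 (Atg14) to 11.84 (Rab7) and were not matched gene by gene to the members. At an unadjusted p below 0.05, 14 members and 46.9% of all genes passed (limma). All 6 HD mice lay above all 6 non-transgenic mice in 6 members and below them in 0, while 10.5% of all genes were higher and 5.69% lower without overlap (16.2% in all). Among the 12293 genes of like signal, 1798 were higher and 846 lower without overlap, so the members lay near that background here too. The largest of the 12 differences was 0.35 on the log2 scale, a fold of 1.28. The median difference of the members was 0.080, against -0.022 over all genes and 0.043 over genes of like signal. The 12 members came from the initiation complex (3 of 5), the conjugation system (5 of 11), the ATG8 family (3 of 5) and the fusion and maturation genes (1 of 6). None of the 7 lipid kinase complex genes and none of the 6 membrane supply genes passed (limma, 0 of these 13 also at an unadjusted p below 0.05). Without HD_p62WT replicate 3 the count was 7, and with the SD of each array as a covariate it was 3, of which 2 were higher (Ulk1 and Vcp) and 1 was lower (Vmp1). It was 2 (Rb1cc1 and Vcp) without the 3 arrays of smallest SD.

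**Figure D1:**
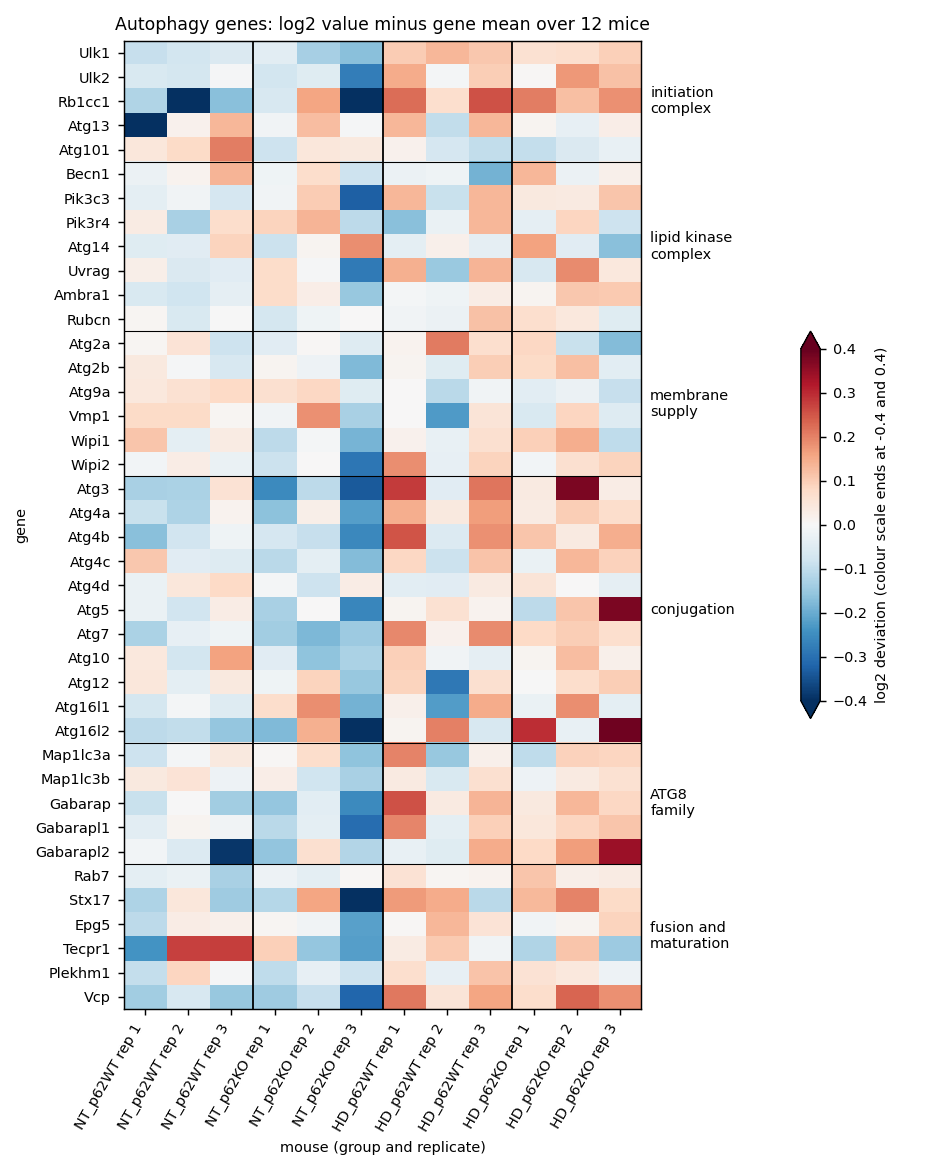
Heat map of the 40 autophagy genes (rows, ordered by step) in 12 mice (columns, by group). Colour gives the log2 value minus the gene's mean over all mice. NT_p62KO replicate 3 is the bluest column (mean deviation -0.17) and the HD columns are mostly red, with HD_p62WT replicate 2 the lowest among them (mean deviation -0.020).

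Vcp encodes the ATPase p97, which extracts ubiquitinated proteins from complexes and membranes and is needed for autophagosomes to mature. It gave log2 values of 10.20, 10.28 and 10.19 in the NT_p62WT mice and 10.20, 10.25 and 10.02 in the NT_p62KO mice. In HD mice it gave 10.55, 10.39 and 10.50 in the HD_p62WT mice and 10.41, 10.57 and 10.52 in the HD_p62KO mice. All 6 HD mice lay above all 6 non-transgenic mice. The mean HD effect was 0.30 ± 0.055 (SE; 1.23-fold; limma, adjusted p = 0.00217). Vcp passed for this effect under every alternative with an adjusted p threshold of 0.05, with differences from 0.17 to 0.32 and adjusted p-values from 0.000219 to 0.0491. The smallest difference came with array SD as a covariate. Among the other fusion and maturation genes, Rab7, the small GTPase of late endosomes, was higher in all 6 HD mice than in all non-transgenic mice but did not pass (0.083 ± 0.042 SE; limma, adjusted p = 0.144). Stx17, the SNARE protein of the closed autophagosome, had a difference of 0.20 ± 0.092 (SE; limma, adjusted p = 0.0999) and ranged from 6.90 to 7.50 within the NT_p62KO group alone. The tether Epg5 (0.092), the RAB7 adaptor Plekhm1 (0.077) and Tecpr1 (-0.012), which links autophagosomes to lysosomes, had mean HD effects that did not pass.

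In the initiation complex the kinase genes and the scaffold were higher in HD mice. Ulk1, the kinase that starts the process, gave 8.76, 8.78 and 8.80 in the NT_p62WT mice and 8.81, 8.73 and 8.69 in the NT_p62KO mice. Its values were 8.96, 8.99 and 8.96 in the HD_p62WT mice and 8.92, 8.93 and 8.95 in the HD_p62KO mice. Every HD mouse lay above every non-transgenic mouse, and the spread within groups was small (SD 0.017 to 0.064). Ulk1 rose by 0.19 ± 0.041 (SE; limma, adjusted p = 0.00539). Ulk2, its paralog, had values of 9.35, 9.35 and 9.41 in the NT_p62WT mice and 9.34, 9.37 and 9.14 in the NT_p62KO mice, and of 9.57, 9.41 and 9.51 in the HD_p62WT mice and 9.42, 9.59 and 9.53 in the HD_p62KO mice. It rose by 0.18 ± 0.056 (SE; limma, adjusted p = 0.0283), but the lowest HD mouse did not lie above the highest NT_p62WT mouse. With array SD as a covariate the Ulk2 difference was 0.053 (adjusted p = 0.513) and that of Ulk1 was 0.17 (limma, adjusted p = 0.0418).

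Rb1cc1, which encodes the scaffold FIP200 of the ULK complex, showed the largest mean HD effect of the members. Non-transgenic mice gave 8.39, 8.09 and 8.34 in the NT_p62WT mice and 8.45, 8.67 and 8.07 in the NT_p62KO mice. HD mice gave 8.74, 8.58 and 8.77 in the HD_p62WT mice and 8.72, 8.63 and 8.70 in the HD_p62KO mice. The HD mice kept within a range of 8.58 to 8.77, whereas the NT_p62KO mice spread from 8.07 to 8.67 and overlapped them. Rb1cc1 rose by 0.35 ± 0.092 (SE; limma, adjusted p = 0.0129). The remaining subunits did not pass. Atg13, the adaptor between kinase and scaffold, had a mean HD effect of 0.057 ± 0.087 (SE), with NT_p62WT replicate 1 at 9.50 against 9.83 to 10.06 in the other mice. Atg101, which stabilises Atg13, had a negative difference (-0.11 ± 0.049 SE; limma, adjusted p = 0.0982).

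Genes of the lipid kinase complex had mean HD effects between -0.035 and 0.12, and none passed the test. Pik3c3, the catalytic subunit VPS34, had the largest (0.12 ± 0.072 SE). Its regulatory partner Pik3r4 (-0.030), the scaffold Becn1 (-0.033) and Atg14 (-0.035), which directs the complex to the nascent autophagosome, had small negative values. Uvrag (0.099), the subunit that takes the place of Atg14 at endosomes, Ambra1 (0.077), which links the complex to ULK1, and the inhibitor Rubcn (0.047) had small positive ones. The membrane supply genes had mean HD effects between -0.093 and 0.13. They were highest for Wipi2 (0.13 ± 0.059 SE), a reader of phosphatidylinositol 3-phosphate that recruits the conjugation machinery, and lowest for the lipid scramblase Atg9a (-0.093 ± 0.045 SE). The lipid transfer genes Atg2a (0.037) and Atg2b (0.072), Wipi1 (0.063) and the scramblase of the endoplasmic reticulum Vmp1 (-0.065) lay between them. Atg9a did pass downward after a further quantile normalization and with array weights, and Wipi2 upward with array weights.

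In the conjugation system, the genes that activate and transfer ATG8 proteins were higher in HD mice. Atg7, the E1-like enzyme that activates both ATG8 and ATG12, gave 8.21, 8.31 and 8.32 in the NT_p62WT mice and 8.20, 8.16 and 8.20 in the NT_p62KO mice, and then 8.53, 8.36 and 8.53 in the HD_p62WT mice and 8.42, 8.44 and 8.41 in the HD_p62KO mice. The HD mice lay between 8.36 and 8.53, above all non-transgenic mice, of which the highest was at 8.32. Atg7 rose by 0.21 ± 0.047 (SE; limma, adjusted p = 0.00556). Atg3, the E2-like enzyme that transfers ATG8 to the lipid, gave 7.92, 7.93 and 8.11 in the NT_p62WT mice and 7.80, 7.95 and 7.72 in the NT_p62KO mice. In HD mice Atg3 was at 8.34, 8.01 and 8.27 in the HD_p62WT mice and 8.09, 8.43 and 8.08 in the HD_p62KO mice. HD_p62KO replicate 2 was the highest mouse, and 3 HD mice lay below NT_p62WT replicate 3, so that the HD and non-transgenic mice overlapped. Atg3 rose by 0.30 ± 0.082 (SE; limma, adjusted p = 0.0157).

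The ATG4 proteases trim ATG8 precursors and release ATG8 from membranes. Atg4a had values of 8.00, 7.97 and 8.11 in the NT_p62WT mice and 7.93, 8.12 and 7.87 in the NT_p62KO mice, against 8.24, 8.13 and 8.26 in the HD_p62WT mice and 8.12, 8.19 and 8.16 in the HD_p62KO mice. Every HD mouse was higher than every non-transgenic mouse, but the lowest and the highest of them met at 8.12, and Atg4a rose by 0.18 ± 0.054 (SE; limma, adjusted p = 0.0209). A second probe set annotated to Atg4a (10500802), not the one used above (10602090), rose by 0.39 ± 0.052 (SE; limma over all probe sets, adjusted p = 0.00039). Among the members probe set numbers ran by chromosome. The number 10500802 lay between those on chromosomes 2 and 4, whereas Atg4a is on X. Whether it reads Atg4a or another locus was not tested. Atg4b stood at 7.90, 8.00 and 8.05 in the NT_p62WT mice and 8.00, 7.98 and 7.81 in the NT_p62KO mice, and at 8.32, 8.02 and 8.25 in the HD_p62WT mice and 8.18, 8.11 and 8.22 in the HD_p62KO mice. HD_p62WT replicate 2 lay among the non-transgenic mice, and Atg4b rose by 0.23 ± 0.063 (SE; limma, adjusted p = 0.017). Atg4c (0.10 ± 0.056 SE) and Atg4d (-0.011 ± 0.045 SE) did not pass.

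ATG12, ATG5 and ATG16L1 together act as the E3-like ligase, and their genes did not pass, whereas Atg16l2 did. This paralog of Atg16l1 gave 7.36, 7.37 and 7.31 in the NT_p62WT mice and 7.29, 7.61 and 7.06 in the NT_p62KO mice, and 7.48, 7.67 and 7.40 in the HD_p62WT mice and 7.76, 7.44 and 7.86 in the HD_p62KO mice. It was the most variable of the 40 members (pooled within-group SD 0.19), its HD and non-transgenic values overlapped, and its difference was 0.27 ± 0.097 (SE; limma, adjusted p = 0.0491). The call was lost in 15 of 21 alternatives with the threshold kept at 0.05. Atg5 (0.16 ± 0.076 SE), Atg12 (0.012 ± 0.070 SE), Atg16l1 (0.021 ± 0.080 SE) and Atg10 (0.068 ± 0.054 SE), the E2-like enzyme for ATG12, did not pass.

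Within the ATG8 family the GABARAP genes were higher in HD mice, while the LC3 genes did not pass. Gabarap gave 11.18, 11.27 and 11.13 in the NT_p62WT mice and 11.11, 11.23 and 11.01 in the NT_p62KO mice. HD mice had 11.53, 11.30 and 11.41 in the HD_p62WT mice and 11.31, 11.40 and 11.35 in the HD_p62KO mice. The lowest HD mouse (11.30) lay above the highest non-transgenic mouse (11.27), and Gabarap rose by 0.23 ± 0.056 (SE; limma, adjusted p = 0.00933). Gabarapl1 was at 11.46, 11.52 and 11.49 in the NT_p62WT mice and 11.40, 11.46 and 11.20 in the NT_p62KO mice, and at 11.70, 11.46 and 11.60 in the HD_p62WT mice and 11.55, 11.59 and 11.62 in the HD_p62KO mice. HD_p62WT replicate 2 lay among the non-transgenic mice, and Gabarapl1 rose by 0.16 ± 0.058 (SE; limma, adjusted p = 0.0434). Gabarapl2 gave 7.28, 7.24 and 6.91 in the NT_p62WT mice and 7.14, 7.36 and 7.18 in the NT_p62KO mice, then 7.27, 7.25 and 7.44 in the HD_p62WT mice and 7.38, 7.46 and 7.64 in the HD_p62KO mice. The groups overlapped, with NT_p62WT replicate 3 lowest at 6.91 and HD_p62KO replicate 3 highest at 7.64. It rose by 0.22 ± 0.078 (SE; limma, adjusted p = 0.0454). The call of Gabarapl1 was lost in 13 and that of Gabarapl2 in 12 of 21 alternatives, among them 9 and 7 that left out single mice. With array SD as a covariate Gabarapl1 had 0.038 (limma, adjusted p = 0.684).

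The LC3 gene Map1lc3b, whose protein is the usual marker of autophagosomes, had a mean HD effect of 0.037 ± 0.047 (SE; 95% confidence interval -0.065 to 0.14). A second probe set annotated to Map1lc3b (10419354) gave 0.046 ± 0.046 (SE). Its number lay close to that of Atg14 on chromosome 14, whereas Map1lc3b is on chromosome 8, and which locus it reads was not tested. Map1lc3a had 0.047 ± 0.069 (SE; 95% confidence interval -0.10 to 0.20). Whether the GABARAP and LC3 genes differed from each other in their HD effect was not tested.

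**Figure D2:**
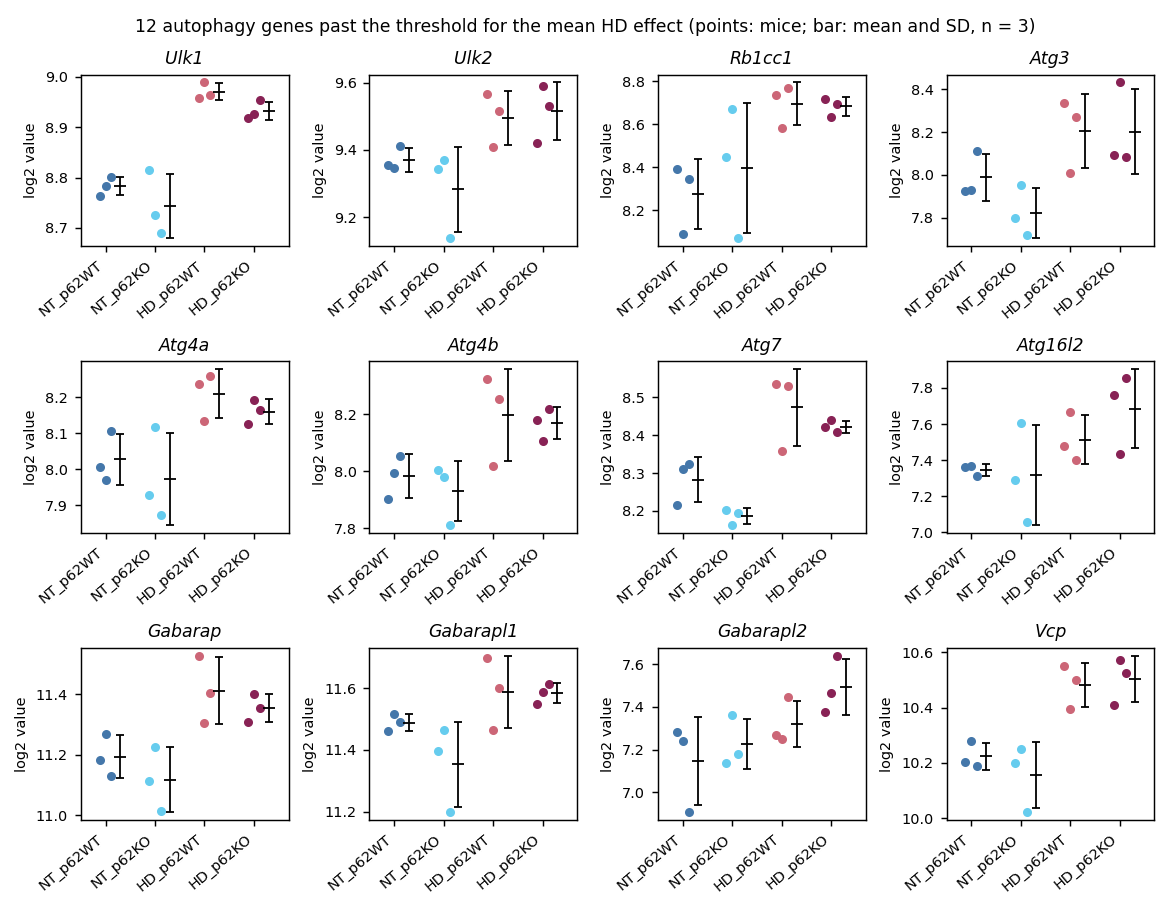
Log2 values of the 12 autophagy genes that passed for the mean HD effect, 1 panel per gene. Points are single mice in 4 groups and the black bar gives the mean and SD (n = 3). In Ulk1, Atg4a, Atg7, Gabarap and Vcp all 6 HD mice lie above all 6 non-transgenic mice, while in Rb1cc1 and Atg16l2 the NT_p62KO mice spread across the range.

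The values of these genes moved with the spread of the whole array. Of the 40 members 85% were higher on arrays of larger SD over the 12 mice (correlation above 0), against 47.8% of all genes. No such share was taken for genes of like signal. Array SD was computed from the same values, and array medians were alike. Genes above the median therefore tend to lie higher on arrays of larger SD, and the share does not single out autophagy genes. Array SDs reached 1.87 in HD and 1.82 in non-transgenic mice, so a correlation over all mice includes the difference between them. Within groups the members' correlations ran from -0.74 (Atg14) to 0.98 (Vcp). The mean deviation of the 40 members from their gene means was lowest in NT_p62KO replicate 3 (-0.17), which had the smallest array SD (1.73). It was highest in HD_p62KO replicate 2 (0.083), which had the largest (1.87). HD_p62WT replicate 2, with an array SD of 1.79 where replicates 1 and 3 had 1.86 and 1.85, had the only negative HD value (-0.020). After a further quantile normalization, which gives all arrays the same spread, the HD values ran from -0.0034 to 0.044 and the non-transgenic values from -0.11 to 0.014. The median mean HD effect of the members, 0.080, was 0.030 after that normalization, 0.040 with array SD as a covariate and 0.065 without the 3 arrays of smallest SD. Cell type markers differed between the groups as well. The mean deviation of projection neuron markers lay between 0.23 and 0.52 in non-transgenic mice and between -0.43 and -0.32 in HD mice. That of striatal interneuron markers lay between 0.043 and 0.31 in non-transgenic and between -0.37 and -0.17 in HD mice. Of the projection neuron markers 11 of 12 fell in HD mice with p62 and 11 of 12 without it, and of the interneuron markers 5 of 7 and 3 of 7. Of all genes 3.24% fell with p62 and 8.34% without it. The remaining projection neuron marker, Tac1, named after its values were seen, rose with p62 (0.33 ± 0.091 SE; limma, adjusted p = 0.0492) and had 0.23 ± 0.091 (SE; adjusted p = 0.0853) without it. The lists for cortical neurons (7 measured) and microglia (7) had 0 genes past the test in either HD comparison, astrocytes (8) had 1 lower in each, oligodendrocytes (7) had 2 and 3 lower, and endothelial and mural cells (8) had 0 and 2 lower. Choroid plexus markers (7) differed between non-transgenic groups, with mean deviations of 0.32 to 0.55 in NT_p62KO and -0.65 to -0.33 in NT_p62WT mice, and ranged from -0.76 to 1.18 among HD mice. All 7 had positive p62 effects in non-transgenic mice, 6 of them without overlap, and 0 passed (limma, 4 at an unadjusted p below 0.05). Of all genes 3.88% were higher without overlap there, and 3.32% had an unadjusted p below 0.05 (limma). In whole striatum, fewer cells of a type and less RNA per cell cannot be told apart, and the part of cell composition in these results was not tested.

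**Figure D3:**
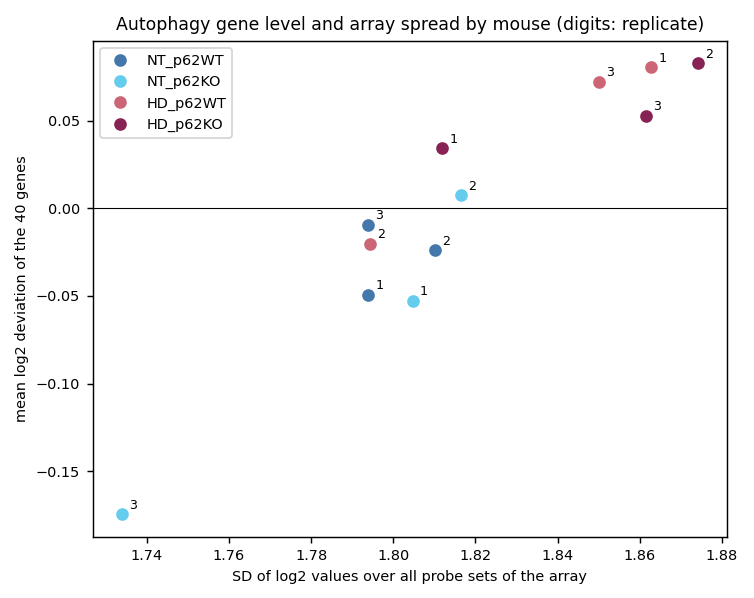
Mean log2 deviation of the 40 autophagy genes in each mouse (vertical axis) against the SD of log2 values over all probe sets of its array (horizontal axis). Colours give the 4 groups and digits the replicate. NT_p62KO replicate 3 lies alone at an SD of 1.73 and a deviation of -0.17, and 4 HD mice lie at SDs of 1.85 and above with deviations of 0.053 to 0.083.

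With p62 present, no autophagy gene passed the test for the HD transgene through its brightest probe set. The second probe set annotated to Atg4a (10500802), whose locus was not checked, did pass (0.33 ± 0.073 SE; limma over all probe sets, adjusted p = 0.0254). The members' median difference was 0.066, and it was 0.0056 with array SD as a covariate and 0.029 after a further quantile normalization. Of the members 0 of 40 passed (limma, 8 at an unadjusted p below 0.05), where 7.10% of all genes did, 3.85% upward and 3.24% downward. At the unadjusted threshold 25.4% of all genes passed. The smallest adjusted p-values belonged to Vcp (0.26 ± 0.078 SE; limma, adjusted p = 0.0661), Ulk1 (0.19 ± 0.058 SE; 0.0718), Rb1cc1 (0.42 ± 0.13 SE; 0.0723), Atg7 (0.19 ± 0.067 SE; 0.0988) and Gabarap (0.22 ± 0.079 SE; 0.109). In each of these 5 genes all HD_p62WT mice lay above all NT_p62WT mice. In all, 9 members were higher without overlap and 2, Atg101 (-0.16) and Atg9a (-0.10), were lower without overlap, while 17.8% of all genes were higher and 15.3% lower without overlap (33.1% in all). Among the 12293 genes of like signal, 2878 were higher and 1829 lower without overlap. The count of called members was 2 without HD_p62WT replicate 2 (Atg4b and Atg7), 2 without NT_p62KO replicate 3 (Rb1cc1 and Vcp) and 1 without NT_p62KO replicate 2 (Rb1cc1), and it was 7 with array weights and 1 (Atg4a) with the average of probe sets. Of all genes past the test 54.3% were higher, and 40.4% with array SD as a covariate.

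Vcp, Atg7, Atg3 and Ulk1 were higher in HD than in non-transgenic mice without p62. Vcp was 10.16 ± 0.12 (SD, n = 3) in NT_p62KO and 10.50 ± 0.083 in HD_p62KO mice and rose by 0.34 ± 0.078 (SE; 1.27-fold; limma, adjusted p = 0.0128). Atg7 went from 8.19 ± 0.021 to 8.42 ± 0.016 (SD, n = 3), a rise of 0.24 ± 0.067 (SE; limma, adjusted p = 0.0282). For Atg3 the means were 7.82 ± 0.12 and 8.20 ± 0.20 (SD, n = 3), a rise of 0.38 ± 0.12 (SE; limma, adjusted p = 0.0363). Ulk1 rose from 8.74 ± 0.064 to 8.93 ± 0.018 (SD, n = 3), by 0.19 ± 0.058 (SE; limma, adjusted p = 0.039). The HD_p62KO and NT_p62KO mice did not overlap in any of the 4 genes. Gabarap followed with 0.24 ± 0.079 (SE; limma, adjusted p = 0.0504) and did not pass. The second probe set annotated to Atg4a (10500802), whose locus was not checked, rose by 0.46 ± 0.073 (SE; limma over all probe sets, adjusted p = 0.00318), whereas the one used for the gene had 0.19 ± 0.076 (SE; limma, adjusted p = 0.0938).

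These 4 were 10% of the members, and 0 fell, where 13.3% of all genes rose and 8.34% fell (21.7% in all). Among genes of like signal 18.1% rose. The median difference of the members was 0.12, and it was 0.075 without NT_p62KO replicate 3, 0.064 with array SD as a covariate and 0.049 after a further quantile normalization. Of the members 14 were higher without overlap and 0 lower, where 22.3% of all genes were higher and 17.2% lower without overlap (39.4% in all). Among the 12293 genes of like signal, 3709 were higher and 1843 lower without overlap. At an unadjusted p below 0.05, 14 members and 38.8% of all genes passed (limma). All 11 conjugation genes, all 5 ATG8 genes and all 6 fusion and maturation genes had positive differences, most of which did not pass, as had 3 of 5 initiation, 5 of 7 lipid kinase and 3 of 6 membrane supply genes. That made 82.5% of the members, against 47.2% of all genes and 58.6% of genes of like signal. The 4 calls depended on single mice. Without HD_p62KO replicate 2 the count was 0 and without HD_p62KO replicate 3 it was 1 (Vcp). It was 2, 9 and 1 without NT_p62KO replicates 1, 2 and 3, and 7 without HD_p62WT replicate 2. It was 1 (Vcp) with the replicate block, 2 (Atg3 and Vcp) after a further quantile normalization, and 0 with array SD as a covariate or with only the groups compared in the fit. With array SD as a covariate Vcp had 0.18 (limma, adjusted p = 0.109) and Atg3 0.17 (adjusted p = 0.462). Of all genes past the test in this comparison 61.5% were higher, and 34.3% with that covariate.

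**Figure D4:**
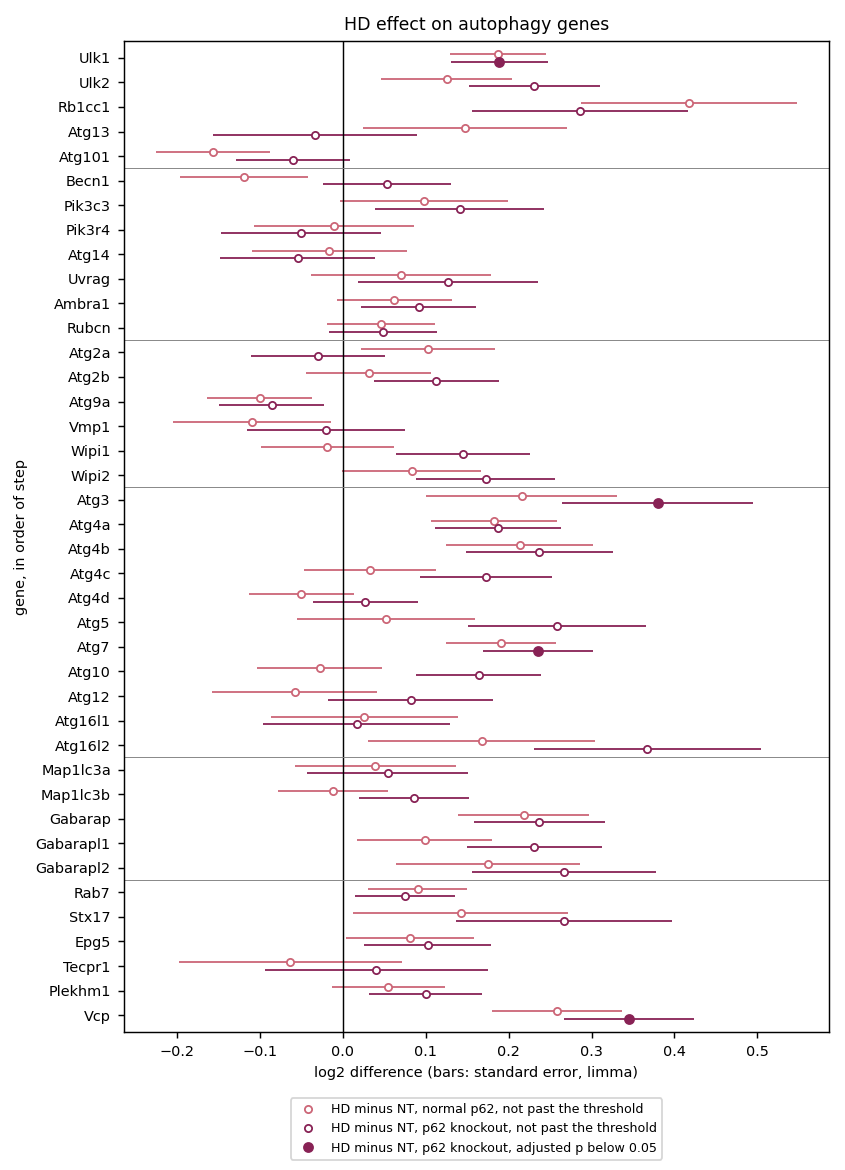
Log2 difference between HD and non-transgenic mice for each of the 40 autophagy genes, with normal p62 (lighter) and with the p62 knockout (darker). Bars are standard errors from limma, and filled points mark an adjusted p below 0.05. The filled points are Ulk1, Atg3, Atg7 and Vcp in the knockout, and for each of them the bars at the 2 genotypes lie on the same side of 0.

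The HD effects at the 2 p62 genotypes come from separate mice and had the same sign in 31 of 40 members (77.5%), and in 80.85% of all genes. Their difference passed for 0 members and for 0 of all genes (0%; limma, 0 members and 3.45% of all genes at an unadjusted p below 0.05). The members with the smallest p for the difference were Atg10 (0.19 ± 0.11 SE, 95% confidence interval -0.041 to 0.42), Becn1 (0.17 ± 0.11 SE), Wipi1 (0.16 ± 0.11 SE), Atg5 (0.21 ± 0.15 SE) and Atg4c (0.14 ± 0.11 SE), each with adjusted p = 0.991 (limma). For Vcp the interval of the difference was -0.15 to 0.33, for Ulk1 -0.18 to 0.18, for Atg7 -0.16 to 0.25 and for Atg3 -0.19 to 0.52. Over the 40 members the intervals reached from -0.56 (Atg13) to 0.62 (Atg16l2). Of the 40 members 33 had a more positive or less negative HD effect without p62, against 51.3% of all genes and 58.2% of genes of like signal. This count goes by sign, so it includes members such as Atg101 whose negative HD effect was smaller in size without p62. That count was 23 without NT_p62KO replicate 3, 24 without HD_p62WT replicate 2, 24 with array SD as a covariate and 18 with array weights.

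Loss of p62 itself was not accompanied by a detectable change in any autophagy gene. In non-transgenic mice 0 of 40 members passed (limma, 0 at an unadjusted p below 0.05), where 0.00520% of all genes did. The smallest p-values belonged to Atg10 (-0.15 ± 0.076 SE), Wipi1 (-0.13 ± 0.081 SE), Gabarapl1 (-0.14 ± 0.082 SE), Atg101 (-0.11 ± 0.069 SE) and Tecpr1 (-0.20 ± 0.13 SE). Of the 40 differences 8 (20%) were positive, against 47.1% of all genes and 40.9% of genes of like signal. Their median was -0.053, and -0.0085 without NT_p62KO replicate 3. Atg7 was the 1 member without overlap, lower in the knockouts (-0.096), while 7.87% of all genes did not overlap, of which those higher were 3.88% of all genes. At an unadjusted p below 0.05, 3.32% of all genes passed (limma). In HD mice 0 of 40 passed (limma, 0 at an unadjusted p below 0.05), again where 0.00520% of all genes did, and the median was 0.0060, with -0.030 to 0.032 as single mice were left out. Atg2a (-0.16 ± 0.081 SE), Becn1 (0.12 ± 0.078 SE), Gabarapl2 (0.17 ± 0.11 SE), Atg16l2 (0.17 ± 0.14 SE) and Ambra1 (0.073 ± 0.070 SE) had the smallest p-values. Ulk1 was the 1 member without overlap, lower in HD_p62KO than in HD_p62WT mice (-0.038), where 4.11% of all genes were lower and 3.26% higher without overlap (7.38% in all). At an unadjusted p below 0.05, 2.88% of all genes passed (limma).

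The intervals bound what these arrays could have missed. In non-transgenic mice the 95% confidence intervals of the 40 p62 effects reached from -0.49 (Tecpr1) to 0.40 (Rb1cc1), and in HD mice from -0.39 (Tecpr1) to 0.47 (Atg16l2). For Map1lc3b they were -0.23 to 0.059 and -0.13 to 0.16, and for Ulk1 -0.17 to 0.088 and -0.16 to 0.089. Averaged over both HD states, the p62 effect passed for 0 members, where 0.0104% of all genes passed (limma, 0 members and 2.69% of all genes at an unadjusted p below 0.05). The members with the smallest p for this average were Gabarapl2 (0.13 ± 0.078 SE), Atg2a (-0.090 ± 0.057 SE), Atg7 (-0.073 ± 0.047 SE), Tecpr1 (-0.14 ± 0.095 SE) and Wipi2 (-0.078 ± 0.059 SE).

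**Figure D5:**
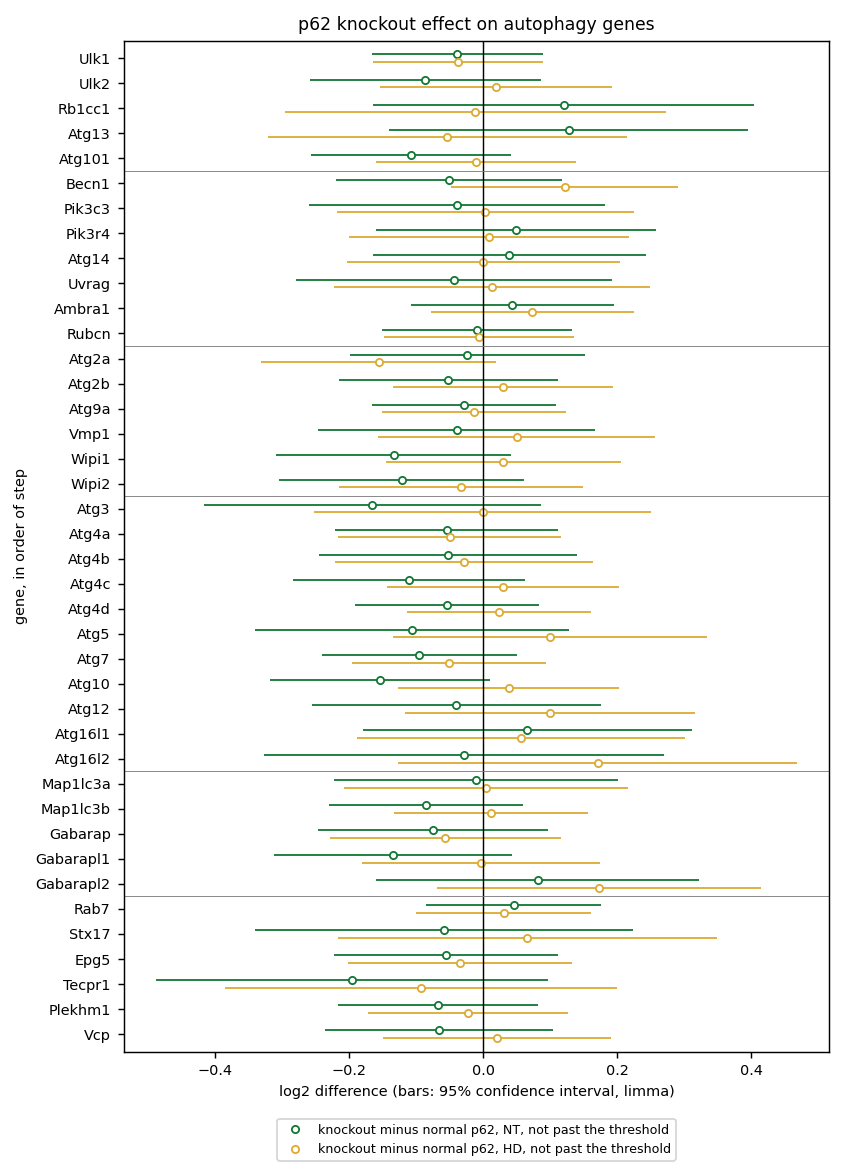
Log2 difference between p62 knockout mice and mice with normal p62 for each of the 40 autophagy genes, in non-transgenic (green) and HD (yellow) mice. Bars are 95% confidence intervals from limma. Every interval crosses 0, and the widest belong to genes such as Tecpr1 and Atg16l2 whose values spread within groups.

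Genes around the core machinery had HD differences of similar or larger size. Of 23 measured genes of related machinery, 1 (4.35%) rose with normal p62 and 5 (21.7%) rose without p62, beside 3.85% and 13.3% of all genes, and 18.1% of genes of like signal without p62. The 5 were Trim28 (0.41 ± 0.096 SE), which also rose with normal p62, Tmem41b (0.46 ± 0.10), a scramblase that works with VMP1, Wac (0.34 ± 0.093), Wdr45b (0.42 ± 0.12), a WIPI family member, and the kinase Tbk1 (0.25 ± 0.080), which phosphorylates cargo receptors including p62. Of 30 measured regulators, 0 rose and 2 (6.67%) fell with normal p62, where 3.24% of all genes fell. Without p62 7 (23.3%) rose and 3 (10%) fell, where 13.3% of all genes rose and 8.34% fell. The Rag GTPase genes Rragb (0.60 ± 0.099 SE) and Rragc (0.41 ± 0.094) and the Ragulator gene Lamtor3 (0.28 ± 0.067), which recruit mTORC1 to lysosomes, rose without p62, as did Sesn2 (0.30 ± 0.075) and Depdc5 (0.53 ± 0.14), which restrain mTORC1. Other genes of the same complexes fell: Rragd by 0.35 (SE 0.10) without and 0.38 (SE 0.10) with p62, and Lamtor2, named after its values were seen, by 0.24 (SE 0.078) without p62. Foxo1, a transcription factor that can induce autophagy genes, fell by 0.51 (SE 0.099) without p62 and by 0.36 (SE 0.099) with it. Of 13 measured cargo receptor genes, Ncoa4, the ferritin receptor, rose by 0.31 ± 0.081 (SE) with p62 (1 of 13, 7.69%). Without p62 5 (38.5%) rose, Ncoa4 by 0.49 ± 0.081 (SE), Sec62 by 0.33 ± 0.074, Fundc1 by 0.31 ± 0.075, Retreg1 by 0.48 ± 0.12 and Tax1bp1 by 0.40 ± 0.13 (limma, adjusted p below 0.05 for all genes named as rising or falling). For machinery, regulators and receptors, the counts past the test without p62 went from 5, 10 and 5 to 2, 5 and 3 without NT_p62KO replicate 3. They were 0, 2 and 2 without HD_p62KO replicate 2, 2, 3 and 3 without HD_p62KO replicate 3, and 0, 2 and 1 with array SD as a covariate. With normal p62 the counts of 1, 2 and 1 ranged from 0 to 2 as single mice were left out. For these lists too, 0 genes passed for loss of p62 in either HD state (limma, 2 at an unadjusted p below 0.05 in each).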

How the data were processed

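Striatal RNA of 12 mice (100 ng of total RNA each, per the labels' protocols) was converted to biotinylated DNA and hybridised to 1 Affymetrix whole-transcript array per mouse. The values are deposited log2 values per probe set, summarised by the authors with RMA, per the submitters' processing notes. RMA corrects background, normalizes between arrays and summarises probes; its version, settings and the genome build were not given in the sources used here. Groups came from the labels, which call the mice of a group biological replicates.

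The platform annotation gave 1 gene symbol for 19942 of the 24055 probe sets and several for 1225, which were left out, and 2888 were not listed there. The brightest probe set stood for each of 470 genes with several, which left 19248 genes. A mean per group was fitted over all 12 arrays with limma 3.58.1 (R 4.3.3; 8 residual and 4.14 prior degrees of freedom), with Benjamini-Hochberg adjustment over all 19248 genes and a threshold of 0.05; differences are HD minus NT and knockout minus normal p62. The fit was tested on simulated data. The members and lists were chosen with earlier results of these data known. Members past the threshold were named per comparison, or those with the 5 smallest p-values where fewer than 5 passed, and at most 6 genes per related list. Values in every mouse are given for the 12 members with the smallest p among those named.

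Replicate numbers are not shown to pair the mice, and the labels do not say whether they do. Deviations of same-numbered mice from their group means correlated between -0.337 and 0.206, above 0.1 in 4 of 18 pairs, and those of other numbers between -0.327 and 0.432. Within groups arrays correlated at 0.988 to 0.995. Alternatives covered the replicate block, normalization, array spread and weights, probe set choice, dim genes, variance model, threshold, the groups in the fit and each mouse left out. The repeat of the count of more positive HD effects without p62, and of the mean deviation per mouse, under other settings was chosen after seeing the data. Of 140 entries in the lists of related genes and cell type markers, 129 were measured. No detection calls were used, and gene coordinates are given only for promoters.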

Additional observations from a re-analysis of the deposited data

How the results depend on the processing

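Loss of p62 and the difference of the HD effects gave 0 members past the test in every alternative run. The mean HD effect of Vcp passed in all 21 alternatives that kept the threshold, Ulk1 and Rb1cc1 in 20, Atg3, Atg4b, Atg7 and Gabarap in 19, Atg4a in 18, Ulk2 in 11, Gabarapl2 in 9, Gabarapl1 in 8 and Atg16l2 in 6, and no named difference that had passed changed sign. The count of 12 members for the mean HD effect was 3 with array SD as a covariate, 2 without the 3 arrays of smallest SD (NT_p62KO replicate 3, NT_p62WT replicates 1 and 3) and 4 at an adjusted p below 0.01, and ranged from 7 to 13 as single mice were left out. For the HD effect with p62 the count of 0 became 1 after a further quantile normalization, 1 with the average of probe sets, 2 without the dimmest 25% of genes, 1 with trended and robust variances, 7 with array weights, 4 at an adjusted p below 0.1 and 1 with only the 2 groups compared. Leaving out single mice gave 0 to 2. For the HD effect without p62 the count of 4 became 2 after quantile normalization, 0 with array SD as a covariate, 0 without the 3 arrays of smallest SD, 7 without the dimmest 25%, 7 with trended and robust variances, 13 with array weights, 12 at an adjusted p below 0.1, 0 below 0.01 and 0 with only the 2 groups compared. Leaving out single mice gave 0 to 9. Of 22 alternatives that kept the threshold, this call was kept in 18 for Vcp, 14 for Atg3, 12 for Atg7 and 7 for Ulk1. Fewer samples or fewer genes tested follow from some of these settings, and the cause of the other changes was not tested. With the 3 arrays left out, NT_p62WT held 1 mouse, whose spread was assumed to be that of the other groups.

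With the replicate number as a block the mean HD effect had 9 members past the test, the HD effect without p62 1, and the HD effect with p62, the p62 effects and the difference 0. The numbers are not shown to pair the mice.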
